A study of Mus musculus with 12 samples.

Results

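Gene expression of 10 genes of spermatogonia and the early germline was followed in cell fractions of the mouse testis. The genes were Gfra1, Kit, Zbtb16, Id4, Sall4, Nanos2, Nanos3, Dazl, Ddx4 and Uchl1, and every probe whose accession maps to one of these symbols was taken. They hold 12 of the 39429 probes of the array, 3 of them for Sall4 and 1 for each other gene, and 9 of the 10 genes were among the 25028 genes tested. Nanos2 was not well above background on any of the 12 arrays and stayed out of the tests.

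The series measured a Sertoli cell fraction and a germ cell fraction taken from the testes of 6 male C57BL/6J mice, and each fraction of a mouse was run on an array of its own. The groups were KO Sertoli (3 arrays), control Sertoli (3), KO germ (3) and control germ (3). KO mice 120, 86 and 72 are labelled as knockout for TAp73, the form of the p53 family member Trp73 that carries the transactivation domain, and were 4, 8 and 8 months old. Control mice 99, 73 and 74 are called wildtype in the source names and were 5, 8 and 8 months old, but the titles call mice 73 and 74 het. How the TAp73 allele was made and which cells lack it are not given in the sources used here. Each slide held 1 mouse of each genotype (mice 120 and 99 on slide 1, mice 86 and 73 on slide 2, mice 72 and 74 on slide 3), and slide 3 was scanned on another day than slides 1 and 2. Values of a group are given below in the order of mice 120, 86 and 72 or 99, 73 and 74.

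Spermatogonia are the mitotic germ cells at the base of the seminiferous tubule, and a few of them are the stem cells that maintain sperm production. Their self-renewal depends on the ligand GDNF, which Sertoli and peritubular cells release and which the receptor pair of Gfra1 and Ret receives. Differentiation follows retinoic acid, Stra8 and the receptor Kit, while Dazl and Ddx4 are made by germ cells through many later stages. In a bulk fraction, fewer cells of a type and less RNA per cell cannot be told apart.

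Promoters are shown for 3 of the genes, because Ddx4 and Dazl had the largest differences between the fractions among the 10 genes while Uchl1, from the same list, did not pass the test. The RefSeq table (build GRCm38.p6) holds 9 windows for 8 of the 10 genes, each from 250 bases before to 50 bases after the start of the gene. The window of Ddx4 lies at chr13:112652261-112652560 (minus strand), that of Dazl at chr17:50293571-50293870 (minus strand) and that of Uchl1 at chr5:66675871-66676170 (plus strand). Capitals mark each CG dinucleotide.
Ddx4: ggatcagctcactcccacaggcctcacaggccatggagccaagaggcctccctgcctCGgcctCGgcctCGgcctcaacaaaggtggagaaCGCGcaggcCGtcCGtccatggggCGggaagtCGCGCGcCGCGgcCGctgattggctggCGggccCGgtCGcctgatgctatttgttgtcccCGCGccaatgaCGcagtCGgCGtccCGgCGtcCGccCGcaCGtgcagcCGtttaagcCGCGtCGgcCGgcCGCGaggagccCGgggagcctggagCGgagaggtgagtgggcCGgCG
Dazl: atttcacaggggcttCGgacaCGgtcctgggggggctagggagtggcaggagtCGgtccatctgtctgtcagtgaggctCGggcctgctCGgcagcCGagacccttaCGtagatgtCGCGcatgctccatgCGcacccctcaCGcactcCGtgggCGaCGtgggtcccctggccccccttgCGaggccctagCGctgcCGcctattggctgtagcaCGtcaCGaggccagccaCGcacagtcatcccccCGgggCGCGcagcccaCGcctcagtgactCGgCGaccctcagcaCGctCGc
Uchl1: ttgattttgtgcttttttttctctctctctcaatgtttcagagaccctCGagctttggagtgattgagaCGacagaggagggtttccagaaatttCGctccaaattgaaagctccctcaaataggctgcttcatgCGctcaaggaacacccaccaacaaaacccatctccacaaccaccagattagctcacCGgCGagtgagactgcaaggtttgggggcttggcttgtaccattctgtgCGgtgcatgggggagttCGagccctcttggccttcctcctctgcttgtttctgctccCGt
The Ddx4 window has 38 CG dinucleotides, the Dazl window 28 and the Uchl1 window 9, against a median of 7 over all 32851 windows of the table. Of all windows, 4.95% have at least as many as that of Ddx4, 14.2% as many as that of Dazl and 45.8% as many as that of Uchl1. The windows not shown have 39 (Id4), 20 and 21 (Kit), 12 (Gfra1), 3 (Nanos3) and 0 (Nanos2). The 3 shown were picked by their differences, and a relation of the CG count to the difference between the fractions was not tested. The E-box CACGTG, which reads the same on both strands, occurs 1 time in the Ddx4 window, starting 29 bases before the gene start, in neither of the other 2 shown, and in 7.15% of all windows. Promoter methylation was not measured in this series.

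Levels are log2 values of the background-subtracted signal relative to the 75th percentile of the same array, so a level of 0 equals that percentile, and levels of different probes are not compared. Differences are on the log2 scale, each ± the standard error (SE) from a limma fit over all 12 arrays. The threshold was 0.05 for p-values adjusted (Benjamini-Hochberg) over all 25028 genes. Of the probes, 64.1% to 68.3% were well above background on the Sertoli arrays and 73.3% to 78.9% on the germ arrays. The 75th percentile of the signal ran between 1355 and 5350, with the lowest on the control Sertoli array of mouse 74.

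The labels were set against their genes first. Trp73, the targeted gene, was well above background on all 6 KO arrays with each of its 3 probes, and its probe of highest level (A_52_P410636) did not pass the test in the germ fraction (KO minus control 1.005 ± 0.50 SE, adjusted p = 0.754) or the Sertoli fraction (0.42 ± 0.50, adjusted p = 0.9996, limma). Probe A_52_P193555 lay between -2.04 and -1.52 on the KO Sertoli arrays and between -3.29 and -2.56 on the KO germ arrays, and at -9.42 and -9.40 on the Sertoli and germ arrays of control mouse 99, where it was not well above background. The third probe (A_55_P1988133) was not well above background on any of the 3 control Sertoli arrays or on the germ array of mouse 99, and was well above it on the germ arrays of control mice 73 and 74. The position of the probes relative to the deletion is not given, and a probe outside it checks nothing, so KO and control stand below for the labels. Mouse 99 stands apart from the other control mice on A_52_P193555 in both fractions, and the KO comparisons are therefore also given without it. The Sertoli fraction of KO mice had 3 of 13 tested Sertoli cell markers higher than the germ fraction and 7 lower, and that of control mice had 5 higher and 7 lower. Fshr, the receptor of follicle-stimulating hormone and a defining Sertoli gene, was not well above background on any Sertoli array. It was well above background on every germ array, with a mean of -2.64 in KO and -3.36 in control mice. The germ fraction thus also held signal of Sertoli marker genes. All 5 markers of peritubular myoid cells and all 5 of fibroblasts were higher in the Sertoli fraction of both genotypes. Of all genes, 37.9% were higher there in KO mice and 39.8% in control mice. The fraction names below therefore also stand for the labels.

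The Sertoli fraction had less signal of most of these germline genes than the germ fraction. In KO mice, 6 of the 9 tested genes were lower in the Sertoli fraction and none was higher (Ddx4, Dazl, Gfra1, Id4, Zbtb16 and Nanos3), where 37.1% of all tested genes were lower and 37.9% higher. In control mice, 7 of 9 were lower (the same 6 and Kit) and none higher, where 36.5% of all genes were lower and 39.8% higher. Gfra1 and Dazl entered the tests only because they were well above background on every array of the germ groups. Their calls as lower in the Sertoli fraction therefore give no support of their own. The counts above, and the overlap counts and medians below, include Gfra1 and Dazl. They are partly set by how these genes entered the tests. The arrays of the fractions did not overlap for 6 of the 9 genes in each genotype, where 80.9% of all genes had no overlap in KO mice and 75.1% in control mice. The median difference, Sertoli minus germ, was -1.97 over the 9 genes and 0.09 over all genes in KO mice, and -1.88 over the 9 genes and 0.21 over all genes in control mice. Between KO and control mice, none of the 9 genes passed the test in either fraction.

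**Figure D1:**
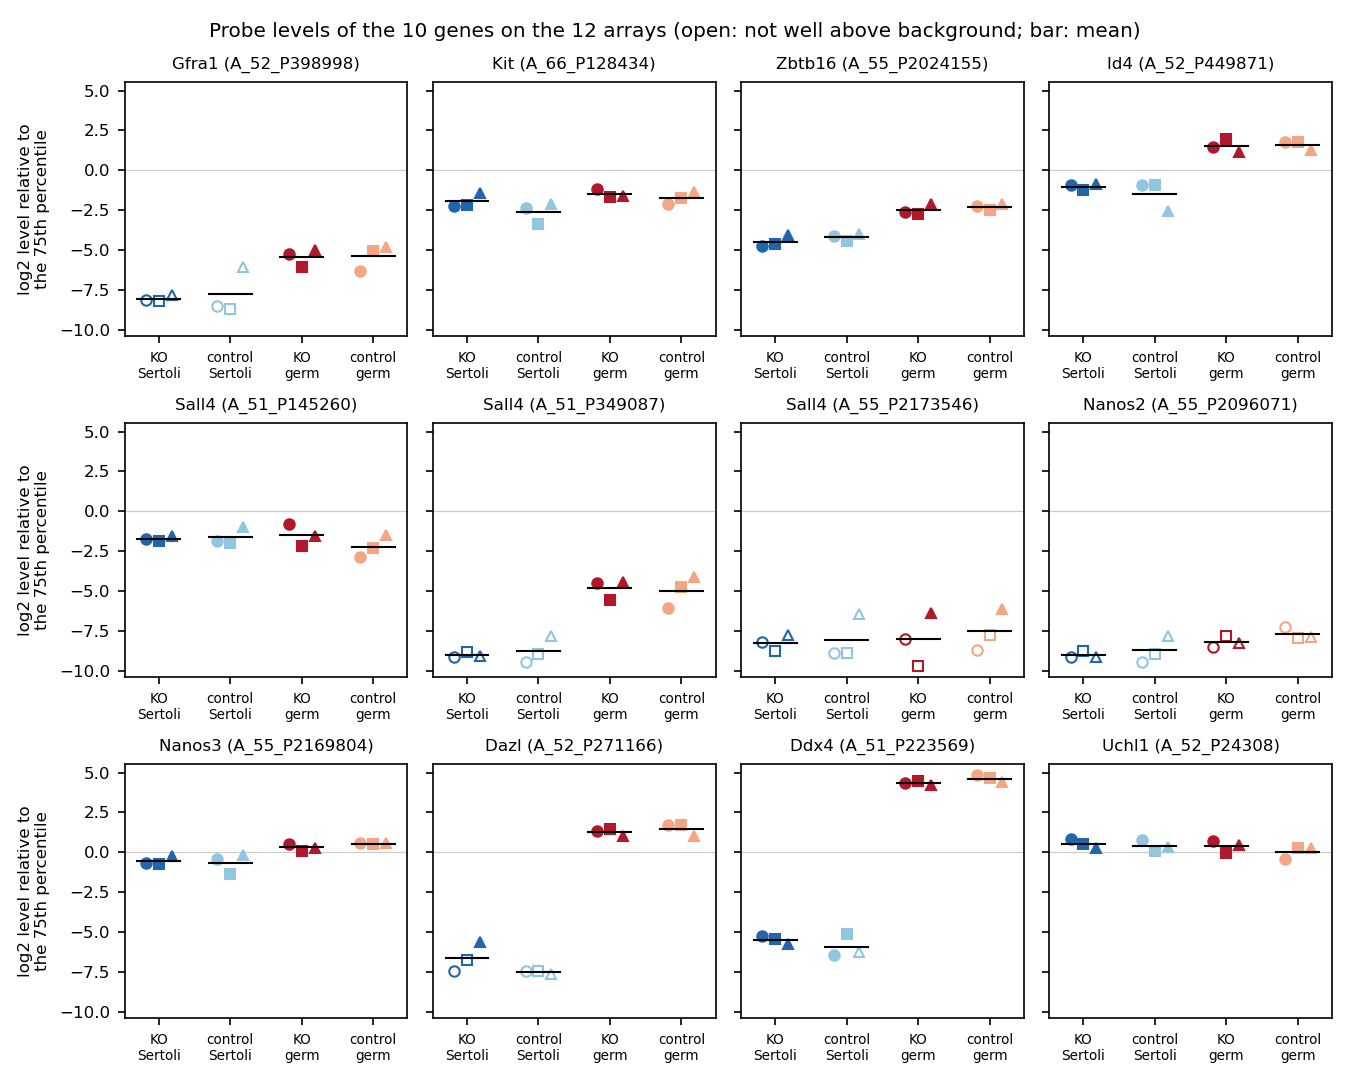
Levels of the 12 probes of the 10 genes on the 12 arrays, in log2 relative to the 75th percentile of the array (vertical axis), by group (horizontal axis). Each point is 1 array (circle slide 1, square slide 2, triangle slide 3), open where the probe was not well above background, and each bar is the mean of 3 arrays. The Ddx4 points of the Sertoli arrays lie between -6.42 and -5.11 and those of the germ arrays between 4.19 and 4.84, while the groups of Uchl1 overlap.

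The receptors come first. Gfra1, the GDNF-binding receptor of undifferentiated spermatogonia, lay at -8.13, -8.21 and -7.83 on the KO Sertoli arrays and at -8.48, -8.72 and -6.03 on the control Sertoli arrays. It lay at -5.23, -6.07 and -5.02 on the KO germ arrays and at -6.33, -5.04 and -4.84 on the control germ arrays. It was not well above background on any Sertoli array and well above it on all 6 germ arrays. The fitted difference, Sertoli minus germ, passed the test in KO mice (-2.62 ± 0.65, adjusted p = 0.00343, limma) and in control mice (-2.34 ± 0.65, adjusted p = 0.00658), lower in 6 of 6 mice. Because the Sertoli level is only a bound, Gfra1 was at least 2.67-fold lower in the KO Sertoli fraction and at least 2.19-fold lower in the control Sertoli fraction. The control Sertoli array of mouse 74, the dimmest array, overlapped the control germ arrays for this gene, and without mouse 73 the control difference was -1.67 and did not pass (adjusted p = 0.0824). With normexp background correction neither passed, at -0.77 in KO mice (adjusted p = 0.379) and 0.76 in control mice (adjusted p = 0.359).

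Kit, the receptor of stem cell factor that marks differentiating spermatogonia and is also made by Leydig and mast cells, lay at -2.25, -2.15 and -1.43 on the KO Sertoli arrays and at -2.37, -3.35 and -2.10 on the control Sertoli arrays. The germ arrays gave -1.14, -1.67 and -1.60 in KO mice and -2.10, -1.73 and -1.35 in control mice. The control Sertoli arrays were all below the control germ arrays, by less than 0.01 at the closest, and the KO groups overlapped. Sertoli minus germ was -0.47 ± 0.35 in KO mice (adjusted p = 0.251) and -0.88 ± 0.35 in control mice (adjusted p = 0.0412, limma), and 5 of the 6 mice had the lower level in the Sertoli fraction. The control call was near the threshold and was often lost. It was lost without control mouse 73 (-0.51, adjusted p = 0.244) or 74 (-0.94, adjusted p = 0.0514). The same held without KO mouse 120 (adjusted p = 0.0558) or 86 (adjusted p = 0.0642), whose arrays are not part of the control difference. Quantile normalization lost it too (-0.52, adjusted p = 0.103), as did normexp background correction and the authors' deposited log2 values. So did leaving out the filter on dim probes, and keeping only 8-month-old mice. Over all alternatives its adjusted p ran between 0.0243 and 0.641.

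Among the transcription factors, Zbtb16, a repressor needed to maintain the stem cell pool, lay at -4.74, -4.63 and -4.03 on the KO Sertoli arrays and at -4.09, -4.40 and -3.97 on the control Sertoli arrays. It lay at -2.63, -2.72 and -2.14 on the KO germ arrays and at -2.23, -2.51 and -2.09 on the control germ arrays. The fractions did not overlap in either genotype. The difference was -1.97 ± 0.25 in KO mice (adjusted p = 2.02e-05) and -1.88 ± 0.25 in control mice (adjusted p = 2.87e-05, limma). Within the 6 mice the difference ran between -2.11 and -1.86, the narrowest range among the tested probes of the 10 genes. With normexp background correction the control difference was -0.74 and did not pass (adjusted p = 0.127).

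Id4, an inhibitor of basic helix-loop-helix factors found in spermatogonial stem cells and in other tissues, lay at -0.93, -1.25 and -0.88 on the KO Sertoli arrays and at -0.94, -0.93 and -2.54 on the control Sertoli arrays. The germ arrays gave 1.43, 1.94 and 1.15 in KO mice and 1.79, 1.79 and 1.24 in control mice. Every Sertoli array was below every germ array, and the control Sertoli array of mouse 74 was the lowest of the 12. The Id4 difference between the fractions was -2.53 ± 0.40 in KO mice (adjusted p = 0.000148) and -3.08 ± 0.40 in control mice (adjusted p = 2.93e-05, limma), lower in 6 of 6 mice.

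Sall4, a zinc finger factor of spermatogonia, gave different answers with its probes. The probe of highest level (A_51_P145260), which stood for the gene, lay at -1.73, -1.87 and -1.56 on the KO Sertoli arrays and at -1.84, -1.99 and -1.01 on the control Sertoli arrays. It lay at -0.78, -2.19 and -1.58 on the KO germ arrays and at -2.88, -2.31 and -1.47 on the control germ arrays. The groups overlapped, and Sertoli minus germ was -0.20 ± 0.43 in KO mice (adjusted p = 0.678) and 0.61 ± 0.43 in control mice (adjusted p = 0.214, limma). The second probe (A_51_P349087) was well above background on all 6 germ arrays, at -4.49, -5.57 and -4.44 in KO mice and at -6.04, -4.77 and -4.11 in control mice. On the Sertoli arrays it was well above background on none, at -9.12, -8.82 and -9.08 in KO mice and at -9.42, -8.97 and -7.81 in control mice. The second probe thus passed the filter on dim probes only through the germ groups. When every probe was tested by itself, this probe was lower in the Sertoli fraction in KO mice (adjusted p = 2.53e-05) and control mice (adjusted p = 5.61e-05), by at least 4.06-fold and at least 2.94-fold. The third probe (A_55_P2173546) was well above background only on the germ arrays of mice 72 (-6.35) and 74 (-6.15), and did not pass the filter on dim probes.

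The RNA-binding proteins follow. Nanos2, a translational repressor of undifferentiated spermatogonia, had signals of -9.15, -8.78 and -9.15 on the KO Sertoli arrays and -9.42, -8.93 and -7.82 on the control Sertoli arrays, none of them well above background. The germ arrays gave -8.52, -7.82 and -8.25 in KO mice and -7.23, -7.94 and -7.87 in control mice, also none well above background. These values are bounds and no difference is drawn from them.

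Nanos3, a relative of Nanos2 that protects germ cells from the primordial stage on, lay at -0.70, -0.76 and -0.22 on the KO Sertoli arrays and at -0.40, -1.33 and -0.20 on the control Sertoli arrays. It lay at 0.51, 0.11 and 0.30 on the KO germ arrays and at 0.58, 0.50 and 0.55 on the control germ arrays. The fractions did not overlap in either genotype. Sertoli minus germ was -0.87 ± 0.28 in KO mice (adjusted p = 0.0157) and -1.19 ± 0.28 in control mice (adjusted p = 0.00254, limma), lower in 6 of 6 mice. The KO call was lost without mouse 120 (-0.70, adjusted p = 0.132), without mouse 86 (-0.87, adjusted p = 0.0652) and with only 8-month-old mice (-0.70, adjusted p = 0.181). With the 2 het-titled control mice left out, mouse 99 is the only control mouse, and its Nanos3 difference was -0.98.

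Dazl, a translational activator needed for entry into meiosis, lay at -7.42, -6.78 and -5.65 on the KO Sertoli arrays and at -7.45, -7.45 and -7.65 on the control Sertoli arrays, and was well above background there only on the array of KO mouse 72. The germ arrays gave 1.36, 1.46 and 1.01 in KO mice and 1.70, 1.70 and 1.03 in control mice. The difference between the fractions was -7.89 ± 0.38 in KO mice (adjusted p = 8.14e-09, limma) and -8.99 ± 0.38 in control mice (adjusted p = 2.80e-09). Dazl was at least 257-fold lower in the control Sertoli fraction.

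Ddx4, the VASA helicase of the germ granule, lay at -5.23, -5.44 and -5.73 on the KO Sertoli arrays and at -6.42, -5.11 and -6.22 on the control Sertoli arrays, against 4.32, 4.48 and 4.19 on the KO germ arrays and 4.84, 4.64 and 4.38 on the control germ arrays. It was well above background on 5 of the 6 Sertoli arrays, all but that of mouse 74, so a small amount of Ddx4 signal was measured in the Sertoli fraction. For Ddx4 the difference was -9.80 ± 0.31 in KO mice (adjusted p = 4.76e-10) and -10.54 ± 0.31 in control mice (adjusted p = 2.86e-10, limma). These 2 differences were the largest among the 9 genes and lay beyond the 5th percentile of all genes, which was -8.01 in KO mice and -8.05 in control mice.

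Uchl1, a ubiquitin hydrolase used as a stain for spermatogonia and abundant in neurons, lay at 0.82, 0.53 and 0.25 on the KO Sertoli arrays and at 0.78, 0.10 and 0.34 on the control Sertoli arrays. The germ arrays gave 0.70, -0.03 and 0.44 in KO mice and -0.45, 0.27 and 0.26 in control mice. All groups overlapped. The Uchl1 difference between the fractions was 0.17 ± 0.28 in KO mice (adjusted p = 0.610, 95% interval -0.46 to 0.79) and 0.38 ± 0.28 in control mice (adjusted p = 0.245, limma, 95% interval -0.25 to 1.01).

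**Figure D2:**
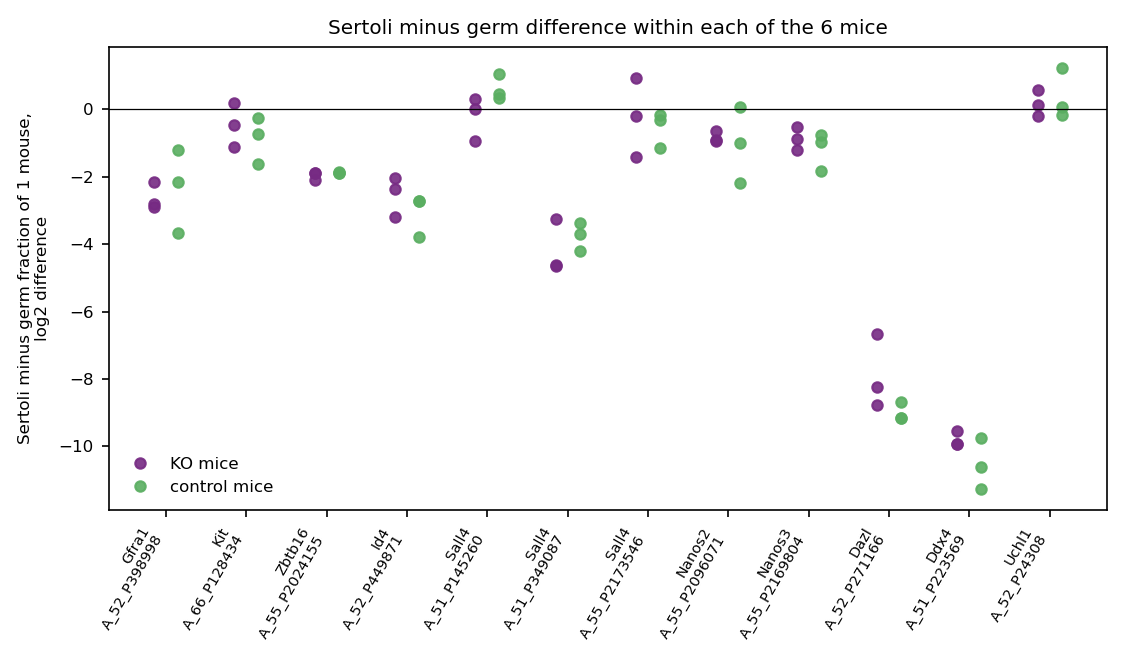
Sertoli minus germ difference within each mouse (vertical axis, log2), for the 12 probes (horizontal axis), with KO mice left of control mice and 1 point per mouse. Ddx4 and Dazl lie between -11.26 and -6.65 in all 6 mice, Zbtb16 between -2.11 and -1.86, and the Sall4 probes A_51_P145260 (-0.95 to 1.04) and A_51_P349087 (-4.64 to -3.25) differ.

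The KO comparison asks whether loss of TAp73 goes with other levels of these genes. In the germ fraction, none of the 9 tested genes passed the test, where 0.22% of all genes did, and none had an unadjusted p under 0.05, where 7.34% of all genes did. The differences, KO minus control, lay between -0.29 (Ddx4) and 0.71 (Sall4), and their median was -0.10 against -0.04 over all genes. The smallest adjusted p was 0.895, that of Sall4 (0.71 ± 0.43, limma, 95% interval -0.24 to 1.65). On slide 1 the KO germ array of Sall4 was 2.10 above the control array, on slide 2 it was 0.12 above, and on slide 3 the difference was -0.10. Without mouse 99 the Sall4 difference was 0.38, without mouse 120 it was 0.34, and without mouse 74 it was 1.08 (adjusted p = 0.275). These Sall4 values are those of probe A_51_P145260. Probe A_51_P349087 had a mean of -4.83 on the KO germ arrays and -4.98 on the control germ arrays. Its differences on slides 1, 2 and 3 were 1.55, -0.79 and -0.33. For none of the 9 genes did the KO germ arrays all lie on the same side of the control germ arrays, where 15.7% of all genes had groups that did not overlap.

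The widths of the intervals set what could have been seen. The 95% interval of the KO difference in the germ fraction ran between -0.76 and 0.32 for Zbtb16, between -0.98 and 0.40 for Ddx4, between -0.86 and 0.38 for Nanos3 and between -1.04 and 0.64 for Dazl. For Gfra1 it ran between -1.47 and 1.40. A change of Gfra1 by 1 log2 unit in either direction therefore lies within its interval, while such a drop of Zbtb16 does not.

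In the Sertoli fraction, none of the 9 genes passed, where 0% of all genes did. The fitted differences, KO minus control, had a median of 0.13 against -0.10 over all genes. Gfra1 was well above background on none of the 6 Sertoli arrays and Dazl on 1 of them (mouse 72), so their fitted values compare mostly background signals and no difference is drawn for either. Dazl was also the 1 gene with an unadjusted p under 0.05 (adjusted p = 0.9996, limma), where 3.02% of all genes had one, and with arrays that did not overlap, as for 6.72% of all genes. The Kit difference was 0.66 ± 0.35 (adjusted p = 0.9996), with overlapping arrays, and 0.78 without mouse 99 (adjusted p = 0.640).

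**Figure D3:**
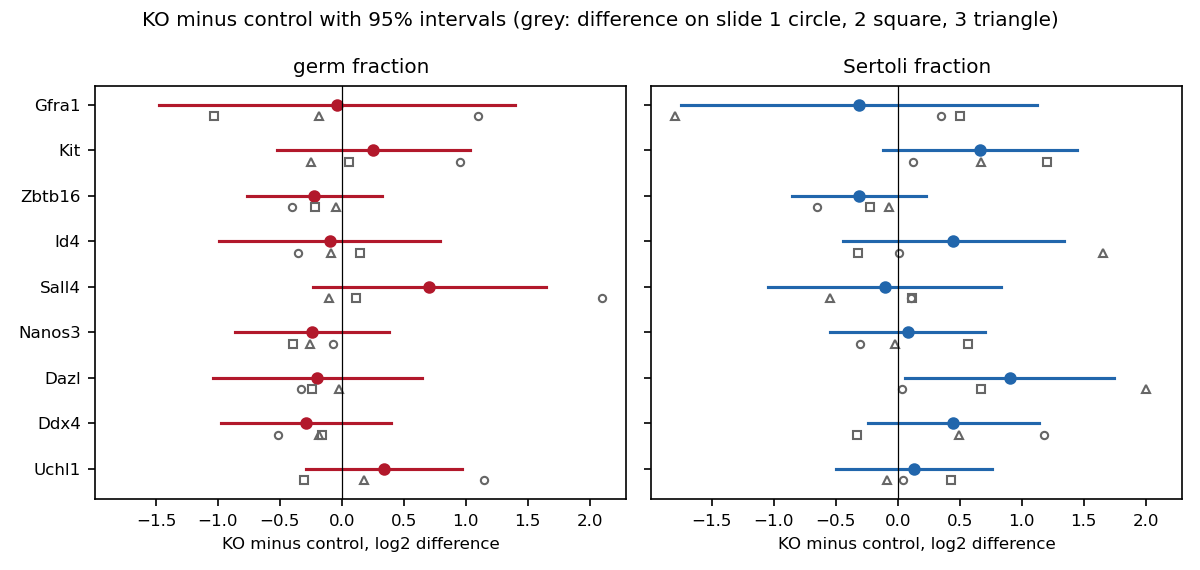
KO minus control difference of the 9 tested genes (horizontal axis, log2; filled circle with its 95% interval) in the germ fraction (left) and the Sertoli fraction (right), with the difference on slides 1, 2 and 3 as a grey circle, square and triangle. Every interval of the germ fraction includes 0. The Sertoli values of Gfra1 and Dazl compare mostly background signals.

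The test of whether the KO difference itself differs between the fractions (Sertoli minus germ) called none of the 9 genes, where 0.00799% of all genes passed, and none had an unadjusted p under 0.05, where 4.58% did. The values of Gfra1 and Dazl rest on Sertoli signals near background and are not read here. Without mouse 99, too, no member passed in any of the KO comparisons.

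Several of the genes lay apart on slide 3 (KO mouse 72 and control mouse 74), which was scanned on another day. This was noticed in the values and is given as a description. Among the germ arrays, Gfra1 and Zbtb16 were higher and Id4 and Dazl lower on both slide 3 arrays than on the other 4, which makes 4 of 9 genes without overlap against 26.1% of the 24881 tested genes with a value on every array. Id4, for example, lay at 1.15 and 1.24 on slide 3 and between 1.43 and 1.94 on slides 1 and 2. Among the Sertoli arrays, Kit, Zbtb16, Sall4 and Nanos3 were higher on slide 3, as was Gfra1, whose signals there were not well above background. That makes 5 of 9 genes without overlap, where 32.6% of those 24881 genes had none. The Sertoli values of Gfra1 and Dazl are not read here because of their background signals. Nothing about the genes as a set is read from the counts of either fraction. The slide 3 Sertoli arrays had 75th percentiles of 2941 (KO) and 1355 (control), against 2863 to 3929 on the other 4. Each slide holds 1 mouse of each genotype, and the fit with slide as a block called none of the 9 genes in either KO comparison.

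Of 21 tested genes of a list of other undifferentiated spermatogonia genes, 9 were higher and 5 lower in the Sertoli fraction of KO mice, and 8 were higher and 4 lower in control mice. Of all genes, 37.9% were higher and 37.1% lower in KO mice, and 39.8% and 36.5% in control mice, and nothing is read from the list's counts. Among those lower, Sox3, a transcription factor of early spermatogonia, was at least 32.8-fold lower in KO mice and at least 27.8-fold lower in control mice. Cdh1, the adhesion molecule E-cadherin, was at least 3.06-fold and at least 1.19-fold lower. All of those lower entered the tests only through the germ groups, so their calls give no support of their own. Among those higher were Thy1, a surface protein used to sort these cells and also carried by fibroblasts (4.91 in KO and 5.75 in control mice), Egr2 (4.29 and 5.89), Epha2 (4.17 and 4.74) and Foxc2 (3.89 and 3.58). Fibroblast markers moved with them: their mean level ran between 3.72 and 4.24 on the KO Sertoli arrays and between 3.79 and 4.46 on the control Sertoli arrays, against -2.36 to -2.02 on the KO germ arrays and -2.98 to -2.66 on the control germ arrays. Their part in these values was not tested.

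Of 12 tested genes of differentiating spermatogonia, 5 were higher and 6 lower in the Sertoli fraction in each genotype, and beside the shares of all genes just given nothing is read from these counts. The Sertoli minus germ difference of Dmrtb1, a factor of the switch to meiosis, was -10.14 ± 0.40 in KO and -9.40 ± 0.40 in control mice, and that of Sohlh1 was -5.85 ± 0.29 in KO and -6.41 ± 0.29 in control mice (limma, adjusted p at most 9.23e-09). Stra8, the retinoic acid target that starts meiosis, was at least 245-fold lower in control mice. Stra8 and Sohlh1 entered the tests only through the germ groups, so their calls as lower give no support of their own. The cyclin genes Ccnd2 (6.35 and 7.10) and Ccnd1 (4.46 and 4.85), which many dividing somatic cells also express, were higher in the Sertoli fraction of KO and control mice.

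Of 16 tested germline RNA regulators, 12 were lower in the Sertoli fraction and 2 higher (Nanos1 and Pum2) in each genotype. Boll, Piwil1, Tdrd6 and others of those lower entered the tests only through the germ groups. Their calls as lower give no support of their own, and the count of lower genes is partly set by this. Of all genes, 37.1% were lower and 37.9% higher in KO mice, and 36.5% and 39.8% in control mice. Boll, a relative of Dazl, was at least 293-fold lower in KO mice and at least 322-fold lower in control mice. Piwil1 and Tdrd6, of the piRNA pathway that silences transposons, were at least 412-fold and 942-fold lower in KO mice and at least 305-fold and 679-fold lower in control mice. The difference of Dnd1, a partner of Nanos proteins, was -1.98 ± 0.19 in KO and -2.15 ± 0.19 in control mice, and that of Nanos1 was 1.30 ± 0.32 in KO and 1.21 ± 0.32 in control mice.

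The niche ligands and receptors follow. Of 11 tested niche ligands and receptors, 9 were higher in the Sertoli fraction of KO mice and 10 in control mice, and none was lower. The shares of all genes were 37.9% higher and 37.1% lower in KO mice, and 39.8% and 36.5% in control mice. Kitl, the ligand of Kit, was higher by 2.94 ± 1.15 in KO mice (adjusted p = 0.0369) and by 4.38 ± 1.15 in control mice (adjusted p = 0.00466, limma). Gdnf, the ligand of Gfra1, had a difference of 0.34 in KO mice, which did not pass, and was higher by 0.94 ± 0.31 in control mice (adjusted p = 0.0158). Ret, the signalling partner of Gfra1, was at least 3.56-fold higher in the KO Sertoli fraction and at least 4.70-fold higher in the control Sertoli fraction. No germ array had Ret well above background, the reverse of Gfra1. Ret entered the tests only through the Sertoli groups, and Gfra1 only through the germ groups. Neither call gives support of its own, and the counts of higher genes above include Ret.

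**Figure D4:**
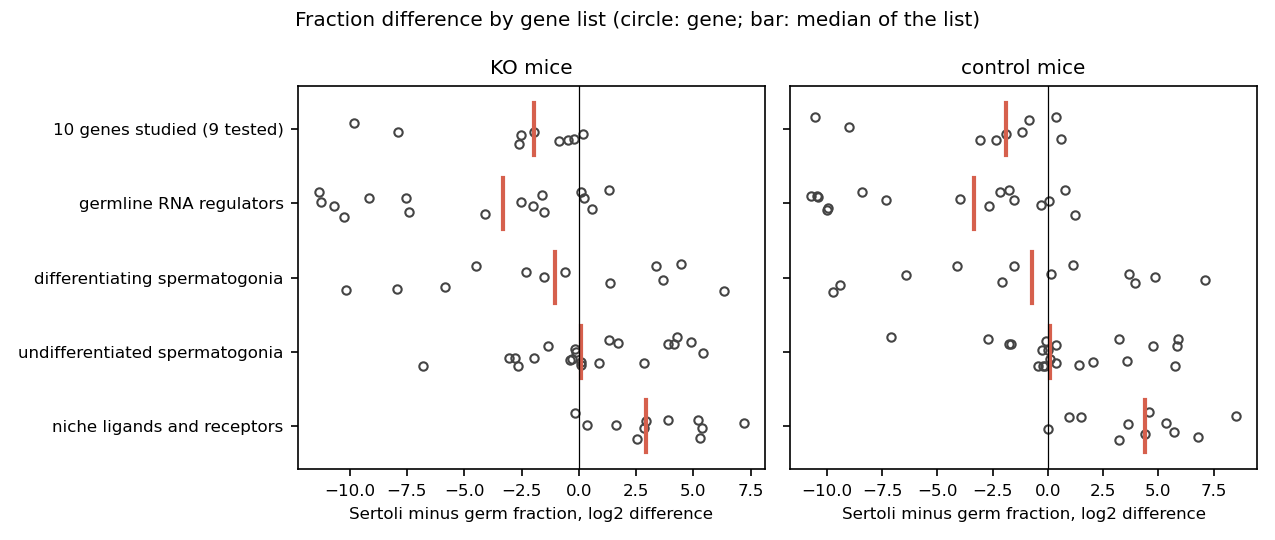
Sertoli minus germ difference (horizontal axis, log2) of each tested gene (open circle) in KO mice (left) and control mice (right), for the 9 tested genes and 4 lists of related genes (vertical axis, points spread only for sight), with the median of each list as a bar. The medians of the germline RNA regulators are -3.30 and -3.33, and those of the niche ligands and receptors are 2.94 and 4.38. Genes that entered the tests only through the germ groups or only through the Sertoli groups are included. The medians are partly set by this.

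None of the genes in these 4 lists passed the test between KO and control mice in either fraction, against 0.22% of all genes in the germ fraction and 0% in the Sertoli fraction. In the germ fraction the smallest p-value in each list was that of Egr2 (1.32 ± 0.31, adjusted p = 0.165, limma), Ccnd2 (0.74 ± 0.27, adjusted p = 0.454), Csf1 (1.02 ± 0.28, adjusted p = 0.253) and Tdrd7 (-0.50 ± 0.27, adjusted p = 0.828). Egr2 lay between -3.61 and -2.38 on the KO germ arrays and between -4.31 and -3.87 on the control germ arrays, and Csf1 between -3.13 and -2.15 on the KO germ arrays and between -3.84 and -3.32 on the control germ arrays. The mean level of 6 Leydig cell markers ran between -0.42 and 0.46 on the KO germ arrays and between -1.85 and -0.51 on the control germ arrays. That of 8 macrophage and leukocyte markers ran between -3.35 and -2.36 on the KO germ arrays and between -4.28 and -3.50 on the control germ arrays. None of the markers of these 2 lists passed the test. The mean level of the 5 fibroblast markers ran between -2.36 and -2.02 on the KO germ arrays and between -2.98 and -2.66 on the control germ arrays, and 1 of them passed (Pdgfra, 1.25 ± 0.19, adjusted p = 0.0354, limma). The part of these 3 lists in the values of Egr2 and Csf1 was not tested.

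The 10 spermatocyte markers tested and the 16 of round and elongating spermatids were all lower in the Sertoli fraction of both genotypes, as Ddx4 and Dazl were. Markers such as Sycp1, Acrv1 and Odf1 were well above background on no Sertoli array and, like Dazl, entered the tests only through the germ groups. The count is partly set by this, and nothing is read from it. Among all genes, 37.1% were lower in KO mice and 36.5% in control mice. Of these germ cell stages, no marker passed between KO and control mice in either fraction.

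The genes whose deviations from the 4 group means were most like those of each of the 9 genes over the 12 arrays were found among 15838 named genes. Pearson's r was 0.99 for Gfra1 with Sh3pxd2a, 0.97 for Kit with Srsf2, 0.93 for Zbtb16 with Dgkg, 0.98 for Id4 with Edem1 and 0.99 for Sall4 with Sstr5. It was 0.97 for Nanos3 with Olfr1388, 0.94 for Dazl with Nrxn3, 0.93 for Ddx4 with Ckap5 and 0.98 for Uchl1 with Akap6. Each is the highest of many correlations over few arrays that share mice and slides, so these values describe the arrays.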

How the data were processed

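The deposited intensity values used are the processed signals, which Agilent Feature Extraction 10.7.3.1 corrected for background and spatial trend, array by array, per the file headers (1 colour, Cy3, design on mm9). The deposited log2 table ranks probes as these signals do (Spearman's rho at least 0.9999 on every array, column medians 8.29). A larger value means more signal there, centring beyond equal medians is unknown, and the submitters' processing notes name only limma. Control spots (1377 of 44397) and outlier spots were left out, spots of a probe were averaged, and the 75th percentile of each array was subtracted from log2. The filter kept probes that some group had well above background on each of its 3 arrays (30531 of 39429), and the probe of highest mean level stood for its gene. Accessions named 26055 probes through RefSeq GRCm38.p6. Limma 3.58.1 (R 4.3.3) fitted 4 group means, and the fit was tested on simulated data. Bounds set the brighter group's mean against, per array, the higher of the lowest well-above-background signal and the probe's own.

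The mouse numbers pair the arrays, since they name the animal. For the 6 mice, r between the Sertoli and germ deviations from the group means ran between -0.16 and 0.46. The members, and the lists, written from general knowledge, were chosen with earlier results of these data known. All 10 members are named, and from each list up to 6 genes past the threshold of a comparison, or otherwise up to 3 of smallest p. Those named past the threshold were not always the ones of smallest p, and were chosen with the values seen. The normexp alternative used the median spot signal, as the files hold no mean signal. The number of arrays limits the precision.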

Additional observations from a re-analysis of the deposited data

How the results depend on the processing

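Of 555 values of single genes under the 15 alternatives, 504 kept their direction and their side of the threshold, 17 lost and 2 gained a call, and 32 changed direction. The count of genes lower in the control Sertoli fraction was 4 with normexp background correction (Gfra1, Kit and Zbtb16 lost) against 7. All other counts stayed within 1.5 times the reported ones, and both KO comparisons and the interaction called 0 genes under every alternative. Without 1 mouse at a time, 5 to 6 genes were called in KO mice and 5 to 7 in control mice. The paired fit with mouse as a replicate block changed no call (6 and 7 genes between the fractions, 0 in the KO comparisons).

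Differences below did not pass unless stated, and the cause of each change was not tested. Without both mice titled het, mouse 99 is the only control mouse. KO minus control was then 0.89 for Gfra1 in the germ fraction, and in the Sertoli fraction 0.42 (Gfra1), -0.078 (Id4), 0.12 (Sall4), -0.17 (Nanos3) and -0.24 (Uchl1). With only 8-month-old mice it was -0.10 for Kit, 0.031 for Id4 and -0.062 for Uchl1 in the germ fraction. With normexp it was -0.042 (Nanos3), -1.16 (Dazl) and -0.84 (Ddx4) in the Sertoli fraction, and the Dazl interaction was -0.97. Sertoli minus germ in KO mice was, for Sall4, 0.11 with quantile normalization, 0.10 with the authors' deposited log2 values and 0.17 at 8 months. In control mice it was 0.76 for Gfra1 with normexp and -0.045 for Uchl1 at 8 months. Sall4 passed in control mice with quantile normalization (0.93, adjusted p = 0.0486, limma). The other gained call was that of Uchl1 in control mice without the mice titled het (1.22). It sets 1 Sertoli array against 1 germ array, both of mouse 99, and nothing is read from it.

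Without 1 mouse at a time, KO minus control ran between -0.50 and 0.28 (Gfra1) and between -0.31 and 0.079 (Id4) in the germ fraction. In the Sertoli fraction it ran between -0.80 and 0.54 (Gfra1), -0.086 and 0.72 (Id4), -0.29 and 0.19 (Sall4), -0.26 and 0.30 (Nanos3) and -0.022 and 0.31 (Uchl1). Sertoli minus germ ran between -0.47 and 0.17 (Sall4) and -0.032 and 0.34 (Uchl1) in KO mice, and between -0.045 and 0.65 (Uchl1) in control mice. With 3 arrays a group, and Gfra1, Dazl and a Sall4 probe near background in the Sertoli fraction, small differences of these genes could not be seen.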
